A study of Mus musculus with 3 samples.

Results

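The 10 mRNAs examined here encode Hk2, Gpi1, Pfkl, Aldoa, Tpi1, Gapdh, Pgam1, Eno1, Pkm and Ldha, enzymes that carry glucose to lactate. They were taken by gene symbol from the 49997 genes of a table of read counts, and all 10 were found there and passed the filter on low counts that left 19601 genes for testing. The table came from RNA immunoprecipitation sequencing (RIP-seq), in which RNA recovered with an antibody to a protein is sequenced and compared with an input library. The antibody was against YTHDF2, and the cells were E14 mouse embryonic stem cells (ESCs). All 3 libraries came from cells treated with doxycycline (Dox) for 24 h. As the study describes its cell system, the ESCs carry a Dux transgene that Dox switches on and a tdTomato reporter driven by the Mervl promoter, so the input cells had been treated as well. The groups were 1 input library and 2 YTHDF2 immunoprecipitation (IP) libraries, called IP1 and IP2 by their replicate number, and no untreated or control-antibody library was analysed here. Separate cultures are not named in the labels for IP1 and IP2, so the p-values below measure the spread between the 2 IP libraries, which may be technical.

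Glycolysis turns glucose into pyruvate in the cytosol. Its upper phase, from Hk2 to Tpi1, spends ATP to make triose phosphates, and its lower phase, from Gapdh on, returns ATP and NADH before Ldha reduces pyruvate to lactate. Pluripotent stem cells are known for high glycolytic flux. YTHDF2 binds mRNAs that carry N6-methyladenosine (m6A) and recruits the CCR4-NOT deadenylase, which shortens their life. In mRNA, m6A lies mostly in sequences related to GGAC and often near the stop codon.

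The libraries summed to between 35259827 and 36986994 counts. All 10 markers of pluripotent ESCs were at 1 CPM (counts scaled to the library total) or more in every library, as were 9 of 10 markers of cells resembling the 2-cell embryo. Of 7 fibroblast markers 2 reached that level, with a summed level of 29.2 CPM in the input and 16.0 and 17.1 CPM in IP1 and IP2. Of 6 primitive endoderm markers 5 reached it, with sums from 18.1 to 23.1 CPM. The summed CPM of the markers of 2-cell-like cells was 2010 in the input, 3190 in IP1 and 3170 in IP2, and its part in the results below was not tested. In bulk libraries such as these, fewer cells of a type and less RNA per cell cannot be told apart.

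To show what YTHDF2 could meet in these mRNAs, the GGAC nearest the stop codon is given for the 3 members with the highest IP over input and for the 3 with the lowest. Each line holds 24 bases of mm10, read 5′ to 3′ along the mRNA strand, with GGAC in capitals.
Hk2: ggagcagacgGGACttccctgctt
Gpi1: agcaacagcgGGACaccaaactag
Pfkl: ctgcgttcccGGACtctcaccctc
Gapdh: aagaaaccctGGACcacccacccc
Pgam1: tctatgaactGGACaagaacttga
Pkm: tggtgggctgGGACaccagggaaa
The Hk2 sequence lies at chr6:82727280-82727303 on the minus strand, in the 3′UTR, and its A is 19 bases past the end of the stop codon. That of Gpi1, at chr7:34202419-34202442 on the minus strand, is coding, with its A 16 bases before the end of the stop codon. That of Pfkl lies at chr10:77988166-77988189 on the minus strand, in the 3′UTR, 33 bases past the stop. Gapdh has its nearest motif 11 bases into the 3′UTR, at chr6:125162010-125162033 on the minus strand. The motif of Pgam1 is coding, at chr19:41917660-41917683 on the plus strand, 103 bases before the end of the stop codon. The one in Pkm lies at chr9:59678940-59678963 on the plus strand, 118 bases into the 3′UTR. Both ends of the range of IP over input thus held a GGAC near the stop codon. Within 200 bases of the stop codon on either side, Hk2 had 8 GGAC, Gpi1 4 and Pfkl 2, while Gapdh had 4, Pgam1 1 and Pkm 1. At least 1 was present in 9 of the 10 members, Aldoa being the exception, and in 81.432% of the 15015 tested genes with an annotated mRNA, whose median number was 2. Such a match is a string of letters and says nothing about whether the base is methylated.

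Which of these mRNAs came down with YTHDF2 above or below their share of the input was then asked. None of the 10 was enriched, 3 were depleted, and both IP levels were below the input for 9 of 10 after TMM scaling (7 of 10 by TPM). A gene was called when the edgeR quasi-likelihood test gave a Benjamini-Hochberg adjusted p under 0.05 and the fold exceeded 2. By that rule 15.0% of all genes tested were enriched and 13.0% were depleted. The count of enriched members was also 0 at an unadjusted p under 0.05 and by DESeq2. Gapdh, Pgam1 and Pkm were the depleted members. At an adjusted p under 0.05 and any fold, 1 member (Hk2) was higher in IP and 8 were lower, against 28.4% and 28.9% of all genes tested. In a fit restricted to the 9987 genes whose mean reached 10 CPM, as it did for all 10 members, the share was 16.3% enriched, 13.8% depleted, and 40.9% higher and 41.8% lower at any fold. With the dispersion fixed at 0.1 in place of the estimate from the IP libraries, the same 3 members were depleted, against 7.81% of genes, 0 were enriched, against 8.05%, and no other member passed. The median log2 fold change of IP over input was -0.66 over the members and 0.01 over all genes tested. The members were chosen with earlier results of these data known, so these counts describe the list and were not tested as a set. All ratios compare shares of a library, since the amount of RNA recovered by IP was not measured.

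The first enzyme stood alone on the positive side. Hk2, on chr6:82725025-82774454 (minus strand), encodes hexokinase 2, which traps glucose in the cell by phosphorylation. Its counts were 6728 in the input, 8654 in IP1 and 9089 in IP2. Both IP libraries were above the input, by 0.33 and 0.38 on the log2 scale after TMM scaling. The fitted log2 fold change was 0.36 ± 0.0599 (SE), or 1.28-fold higher, with an edgeR adjusted p of 2.38e-06. This placed Hk2 at the 62.2 percentile of all genes tested and short of the fold needed for a call. With a trend on GC content removed its value was 0.19 (edgeR adjusted p = 0.00737).

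Gpi1 and Pfkl, the next enzymes, lay nearest to 0. Gpi1, on chr7:34201327-34230336 (minus strand), encodes glucose phosphate isomerase, which turns the product of hexokinase into a fructose phosphate. It had 19530 counts in the input, 17890 in IP1 and 18895 in IP2, which gave log2 ratios of -0.16 and -0.10. The fit gave -0.13 ± 0.0515 with an edgeR adjusted p of 0.0342, which was lost under DESeq2 (adjusted p = 0.0739), and scaling to TPM turned the sign, to 0.02. With a trend on GC content removed it was -0.36 (edgeR adjusted p = 1.68e-07). Pfkl, on chr10:77986947-78009807 (minus strand), encodes the liver-type subunit of phosphofructokinase, which catalyses the committed step of the pathway. Its counts were 3214 in the input, 2847 in IP1 and 3206 in IP2. The log2 ratios were -0.20 and -0.05, and the fitted value of -0.13 ± 0.0773 did not pass the test, with an edgeR adjusted p of 0.164. Here too scaling to TPM gave 0.02. With a trend on GC content removed Pfkl was at -0.49 and passed (edgeR adjusted p = 1.47e-06). The ranges of Gpi1 and Pfkl over the 2 IP libraries overlapped, so no order between them can be given.

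Aldoa and Tpi1 close the upper phase and were lower in IP by less than 2-fold. Aldolase A, from Aldoa on chr7:126795234-126800994 (minus strand), splits fructose bisphosphate into a pair of trioses. Aldoa counts were 37645 in the input against 25700 and 26923 in IP1 and IP2. The fitted log2 fold change was -0.56 ± 0.0478, 1.47-fold lower, with an edgeR adjusted p of 7.52e-13. Tpi1, on chr6:124810586-124814158 (minus strand), encodes triose phosphate isomerase, which interconverts those trioses. Its counts were 3643 in the input, 2308 in IP1 and 2418 in IP2. Its fitted value was -0.66 ± 0.0752, or 1.59-fold lower (edgeR adjusted p = 7.92e-10). The 2 IP libraries lay below the input for both genes. The exons of Tpi1 share 34 bases with Spsb2 on the opposite strand, a gene with 77, 383 and 407 counts in the input and IP1 and IP2. Counting ignored strand and dropped any read lying over a pair of genes.

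The lower phase began with the lowest value of all members. Gapdh, on chr6:125161852-125166467 (minus strand), encodes the dehydrogenase that oxidises glyceraldehyde phosphate and is often used as a reference mRNA. Gapdh had 11888 counts in the input, 3093 in IP1 and 3186 in IP2. Both IP libraries were far below the input and close to each other, at log2 ratios of -1.97 and -1.95. The fitted log2 fold change was -1.96 ± 0.0599, or 3.89-fold lower, with an edgeR adjusted p of 4.81e-26, at the 4.8 percentile of all genes tested.

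Pgam1, on chr19:41911871-41918665 (plus strand), encodes phosphoglycerate mutase 1, which moves the phosphate group within phosphoglycerate. Its counts were 19672 in the input, 5742 in IP1 and 6162 in IP2. The log2 ratios of -1.81 and -1.72 both lay above those of Gapdh and below those of every other member. The fit gave -1.76 ± 0.0546, 3.4-fold lower, with an edgeR adjusted p of 1.01e-25. Eno1, on chr4:150236708-150248879 (plus strand), encodes enolase 1, which makes phosphoenolpyruvate. It had 24051 counts in the input against 15308 and 15902 in IP1 and IP2, and was 1.58-fold lower at a log2 fold change of -0.66 ± 0.0503 (edgeR adjusted p = 2.29e-14). Eno1 was therefore lower in IP without reaching the fold for a call, unlike the enzymes on either side of it. With a trend on GC content removed it was at -1.04 (edgeR adjusted p = 5.47e-19) and was depleted as they were.

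Pkm, on chr9:59656576-59679372 (plus strand), encodes muscle-type pyruvate kinase, which makes pyruvate and ATP. Pkm had the highest count of the members in the input, 62406, and 22224 and 24202 in IP1 and IP2. Its log2 ratios were -1.52 and -1.42, and the fitted value of -1.47 ± 0.0478 corresponded to 2.76-fold lower levels (edgeR adjusted p = 1.29e-24). Ldha, on chr7:46842274-46855627 (plus strand), encodes lactate dehydrogenase A, which regenerates NAD from NADH. Its counts were 8941, 5706 and 5814, with log2 ratios of -0.68 and -0.67. The fit gave -0.67 ± 0.0592, or 1.6-fold lower, with an edgeR adjusted p of 1.34e-12. The ranges of Eno1, Tpi1 and Ldha overlapped between neighbours, whereas Hk2, Aldoa, Pkm, Pgam1 and Gapdh each stood apart from the members next to them in order.

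**Figure D1:**
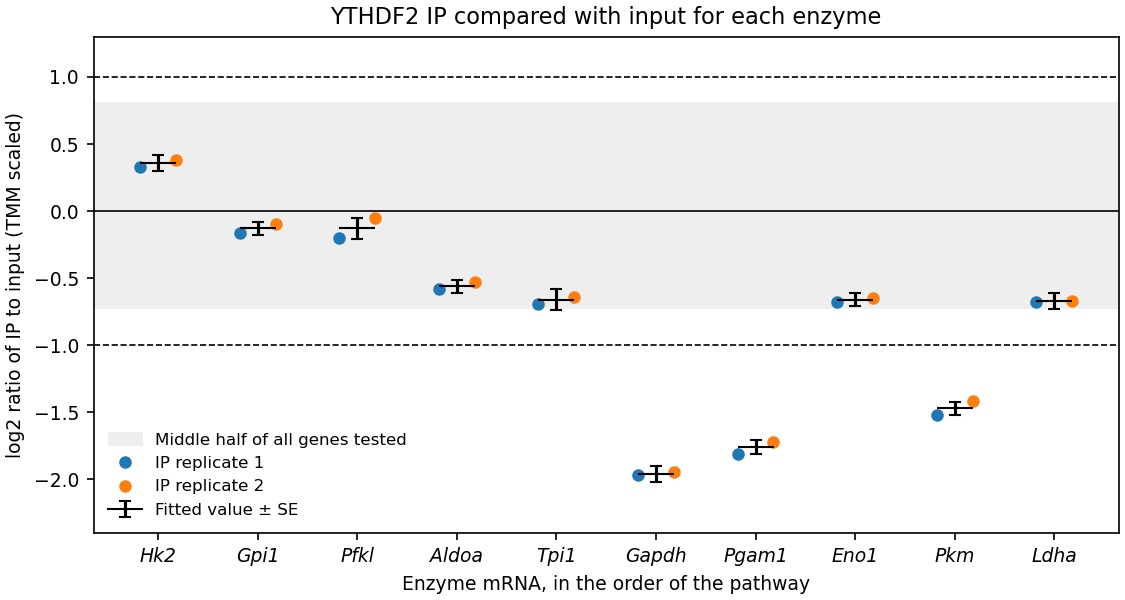
Log2 ratio of each YTHDF2 IP library to the input (y axis, TMM scaled) for the 10 enzymes in the order of the pathway (x axis). Coloured points are the 2 IP libraries, black bars the edgeR fit ± SE, dashed lines the 2-fold limits and the grey band the range from the lower to the upper quartile of all genes tested (-0.721 to 0.809). Gapdh, Pgam1 and Pkm lie below the lower dashed line, Hk2 alone lies above 0, and Gpi1 and Pfkl, near 0, turn to 0.02 when counts are scaled to TPM.

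Taken by phase, the median log2 fold change was -0.13 for the 5 upper enzymes and -1.47 for the 5 lower ones. The upper median, set by Gpi1 and Pfkl, turned to 0.02 with scaling to TPM and to -0.49 with a trend on GC content removed, where the lower median was -1.32 and -1.72. In the upper phase 0 of 5 were depleted, 3 were lower at any fold (of which Gpi1 was lost under DESeq2) and 1 was higher. In the lower phase 3 of 5 were depleted and all 5 were lower. The upper phase held 0.191% of all counts in the input (95% Wilson interval 0.19 to 0.193) and 0.163% and 0.169% in IP1 and IP2. The lower phase held 0.343% in the input (0.341 to 0.345) and 0.148% and 0.154% in IP1 and IP2. For all 10 members the share was 0.535% in the input (0.532 to 0.537), 0.31% in IP1 (0.309 to 0.312) and 0.323% in IP2 (0.321 to 0.325). Only counting error is in these intervals. The drop in the share of the whole list thus lay mostly in the lower phase. Isozymes outside the 10, given below, did not all follow this split. Pfkm (-1.32) and Pfkp (-1.06) of the upper phase were depleted, and Ldhb (-0.10) of the lower phase did not pass. Hk1 (0.61) and Pgk1 (-1.42) went the same way as the members beside them.

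Levels were compared between enzymes per length, in TPM (counts per base, scaled to the same sum in each library) over the exonic bases of the main chromosomes. In the input the order ran from Aldoa (867 TPM) and Pkm (852 TPM) through Eno1 (668), Pgam1 (598), Gpi1 (377), Gapdh (343) and Tpi1 (138) to Ldha (93.2), Hk2 (66.2) and Pfkl (43.9). With 1 input library, no spread can be given for that order. Of the merged exonic bases of Ldha, 66.0% lay outside the annotated mRNA chosen for it (34.3% for Aldoa and 34.0% for Gapdh). The TPM of these genes may therefore be low, and the place of Ldha in the order is uncertain. In IP1 and IP2, Aldoa remained first with 644 and 661 TPM, followed by Eno1 with 463 and 471 TPM. Gpi1 came next with 376 and 389 TPM and so stood above Pkm, which had 330 and 353 TPM. Pgam1 followed with 190 and 200 TPM. Gapdh (97.1 and 98.1 TPM), Tpi1 (95.2 and 97.8 TPM) and Hk2 (92.7 and 95.4 TPM) came next, with ranges that overlapped between neighbours. Ldha was at 64.7 TPM in both IP libraries and Pfkl at 42.3 and 46.7 TPM. By these counts the Gapdh level was far above that of Hk2 in the input, and nearly level with it in IP1 and IP2. Of the Gapdh mRNA bases, 94.113% lay in identical runs of at least 150 bases elsewhere, against 0 for Hk2. Gapdh may therefore be a low estimate in all 3 libraries, and how its true level compares with that of Hk2 is uncertain. The TPM of the 10 members summed to 4050 in the input, 2400 in IP1 and 2480 in IP2.

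**Figure D2:**
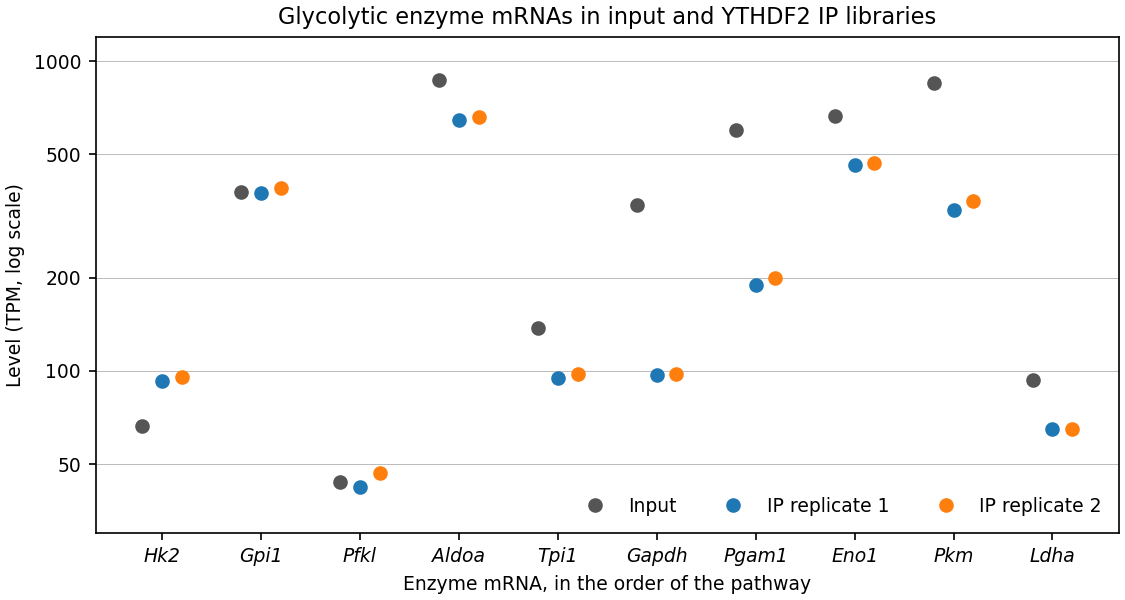
Level of each enzyme mRNA in TPM (y axis, log scale) in the input and in IP1 and IP2 (coloured points), in the order of the pathway (x axis). In TPM, the input point lies above both IP points for 7 enzymes from Aldoa to Ldha, below them for Hk2, and between them for Gpi1 and Pfkl.

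The other enzymes and isozymes of glycolysis numbered 26, of which 20 were tested. Among them 1 was enriched, 3 were depleted, 3 were higher and 6 lower at any fold, and the median log2 fold change was -0.51. Over all genes tested 15.0% were enriched, 13.0% depleted, and 28.4% higher and 28.9% lower at any fold. The depleted and lower counts of this list lay near those shares. Pgk1, phosphoglycerate kinase, acts between Gapdh and Pgam1 and was not among the 10. It had 10540 input counts against 4002 and 4124 in IP1 and IP2, a log2 fold change of -1.42 ± 0.0596 (edgeR adjusted p = 7.1e-22), and was depleted like its neighbours in the pathway.

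Isozymes of the same step were read beside the member of that step. Of the phosphofructokinase subunits, the muscle type Pfkm (-1.32 ± 0.112) and the platelet type Pfkp (-1.06 ± 0.0626) were depleted, with edgeR adjusted p of 5.5e-13 and 2.61e-17, while Pfkl did not pass the test. Pfkl did pass with a trend on GC content removed, at -0.49. The difference between these subunits was not tested. Pfkm had 1761 input counts against 678 and 768 in IP1 and IP2. Pfkp had 8447 against 4005 and 4353. Hexokinase 1 (Hk1) was higher in IP at 0.61 ± 0.0749 (edgeR adjusted p = 5.99e-09), and so was Adpgk, an ADP-dependent glucokinase, at 0.62 ± 0.0648 (1.19e-10). For the first step, then, Hk1, Hk2 and Adpgk were all higher in IP by less than 2-fold.

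The enriched enzyme was Bpgm, which makes and removes bisphosphoglycerate beside the Pgam1 step. Bpgm had 959 input counts against 2241 and 2331 in IP1 and IP2, a log2 fold change of 1.21 ± 0.0997 (edgeR adjusted p = 2.22e-13). Lactate dehydrogenase B (Ldhb), at -0.10 ± 0.0607, did not pass (0.155), with 6903 input counts against 6517 and 6711 in IP1 and IP2. Eno1b, an enolase gene whose counts are uncertain where its sequence is identical to Eno1, was lower at -0.45 ± 0.0596 (3.4e-08), with 10494 input counts against 7486 and 8311. Eno3 was at -0.74 ± 0.167 (0.000212) and Pgam5, a mitochondrial phosphatase named for its family, at -0.83 ± 0.0892 (1.98e-10). Aldoc, Hkdc1, Gapdhs, Pgam2, Eno2, Eno4, Pklr, Ldhc and Ldhd did not pass the test, and 8 of these 9 had at most 206 counts in any library.

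Genes around the pathway were set beside the members by the same counts. Of 12 regulators tested, 4 were enriched, 3 were depleted and the median was 0.38. For this list and those that follow, the shares over all genes tested were 15.0% enriched and 13.0% depleted. The prolyl hydroxylases that mark HIF1A for decay in the presence of oxygen were all enriched, Egln1 at 2.09 ± 0.0796, Egln2 at 1.52 ± 0.0734 and Egln3 at 1.25 ± 0.242, with edgeR adjusted p of 3.82e-23, 4.21e-20 and 2.66e-05. Egln1 had 1226 input counts against 5239 and 5472 in IP1 and IP2. The mRNA of HIF1A itself and that of its partner ARNT were depleted, Hif1a at -1.80 ± 0.0943 (6.38e-19) and Arnt at -1.16 ± 0.0746 (4.7e-16). HIF1A with ARNT is known to switch on many glycolytic genes under low oxygen. The kinase and phosphatase gene Pfkfb4, which sets the level of an activator of phosphofructokinase, was enriched at 1.52 ± 0.201 (2.52e-08), and its relative Pfkfb1 was depleted at -1.65 ± 0.282 (4.29e-06).

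Glucose enters and lactate leaves through membrane carriers, of which 11 of 14 were tested, with 2 enriched, 1 depleted and a median of -0.62. At any fold 2 carriers were higher in IP and 6 were lower, against 28.4% and 28.9% of all genes tested. Slc2a1, the widely expressed glucose carrier GLUT1, was enriched at 1.06 ± 0.0564 (edgeR adjusted p = 1.1e-18), with 8572 input counts against 18603 and 18057 in IP1 and IP2. Slc2a5, a fructose carrier, was enriched at 1.73 ± 0.251 (1.8e-07). The mitochondrial pyruvate carrier subunit Mpc1 was depleted at -2.16 ± 0.259 (3.32e-09), with 363 input counts against 73 and 94.

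Downstream of pyruvate, 0 of 13 genes of the pyruvate dehydrogenase complex and its regulators were enriched and 4 were depleted, with a median of -0.44. Over all genes tested 15.0% were enriched, 13.0% depleted and 28.9% lower at any fold. The depleted genes encode the catalytic subunits, Pdha1 at -1.88, Pdhb at -1.80, Dlat at -1.72 and Dld at -1.29. The tricarboxylic acid cycle followed with 9 of 16 depleted, 15 lower at any fold, none with a value above 0 and a median of -1.05. Idh3a at -2.12 and Idh1 at -1.59 were the lowest of that list. In the pentose phosphate pathway, which branches off at the product of hexokinase, 0 of 10 tested genes were enriched, 2 were depleted (Rpe at -1.73 and Taldo1 at -1.05) and the median was -0.43. Of 6 tested gluconeogenesis genes, which reverse the pathway, Pck2 was enriched at 1.21 and 0 were depleted, with a median of -0.18 that turned to 0.01 without IP2.

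A list of 19 mRNAs outside glycolysis that often serve as references was read in the same way. Of these, 7 were depleted and 14 were lower at any fold, against 13.0% and 28.9% of all genes tested, and the median was -0.86. Actg1, cytoplasmic gamma-actin, was the lowest at -2.49 and Tfrc, the transferrin receptor, came next at -2.15. The median of the 10 glycolytic enzymes (-0.66) thus lay between those of the pyruvate dehydrogenase list and this reference list, and no difference between lists was tested.

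**Figure D3:**
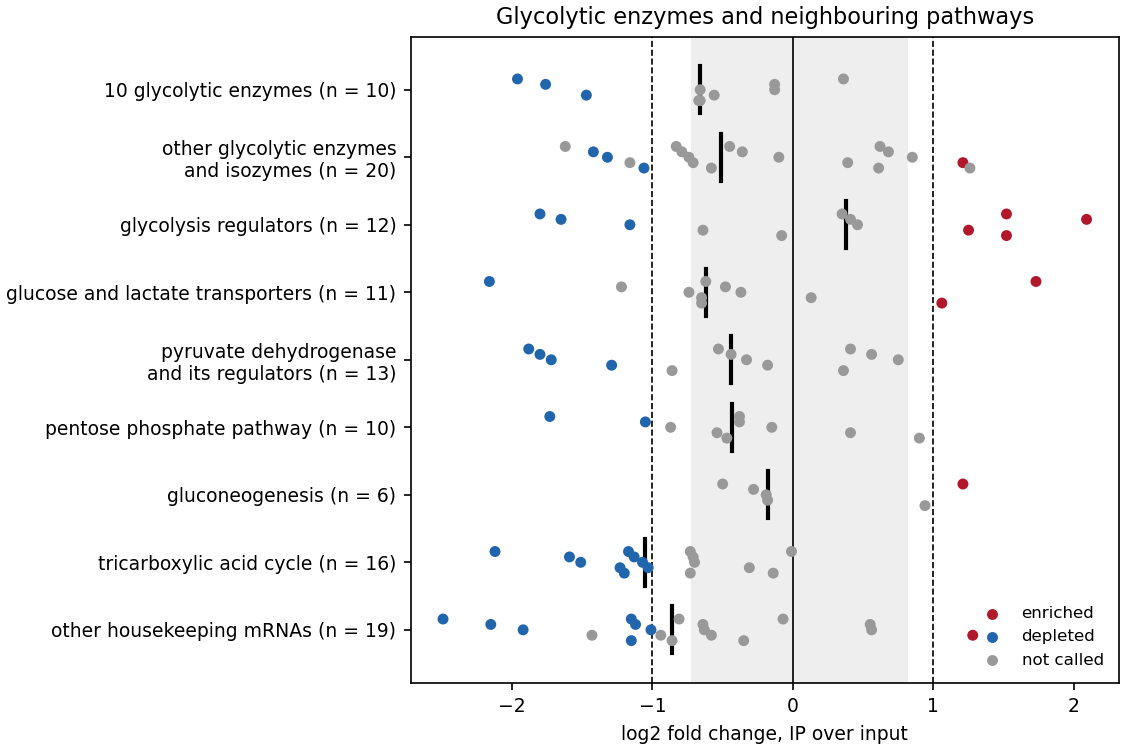
Log2 fold change of IP over input (x axis) for the 10 enzymes and 8 further lists (y axis, with the number of genes tested). Each point is a gene, red where enriched, blue where depleted and grey where not called; black bars are list medians, dashed lines the 2-fold limits and the grey band the quartiles of all genes tested. List medians run from -1.05 for the tricarboxylic acid cycle to 0.38 for the regulators, and that of the 10 enzymes is -0.66.

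The members had GC contents of their merged exons between 51.4% (Ldha) and 56.9% (Aldoa), all above the median of 49.7% over the 19554 tested genes with a value. Across those genes, which are not independent replicates and share the same 3 libraries, the log2 fold change correlated with GC content with a Spearman rho of 0.314. Over the 10 members rho was -0.0545. The enzymes thus lay on the GC-rich side, where IP over input ran higher across genes, and 9 of the 10 were below 0. When a smooth trend on GC content was removed, their median fell to -0.906. Hk2 (0.19) stayed above 0, and Gpi1 (-0.36) and Aldoa (-0.94) lay further below it. Pfkl was then lower, at -0.49 (edgeR adjusted p = 1.47e-06), and 4 members were depleted instead of 3, Eno1 (-1.04) being the one added, against 11.4% of the 19555 genes with a value in that fit. None was enriched there, against 13.4%.

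GGAC density varied among the members. Pfkl had 6.87 GGAC per kb of merged exons (the 92.2 percentile of tested genes), Hk2 6.01 and Gpi1 5.89, and these were also the 3 members with the highest IP over input. Gapdh had 5.7, the 82.0 percentile, and the other 6 ranged from 2.06 in Ldha to 4.08 in Tpi1. The merged exons of Gapdh and Aldoa hold many bases outside the chosen mRNA, and over that mRNA alone Gapdh had 4 GGAC, or 3.14 per kb, and Aldoa 1.259 per kb. Over the mRNA, Pfkl (6.434), Hk2 (6.349) and Gpi1 (6.235) stayed the densest, ahead of Pkm at 4.739 per kb. The Spearman rho with the log2 fold change was 0.442 over the 10 members and 0.242 over all tested genes with a value for merged exons, and 0.564 over the members for the mRNA. The number of merged exons gave 0.806 over the members and -0.151 over all genes. Hk2, Gpi1 and Pfkl had 19, 18 and 22 exons, and Gapdh and Pgam1 had 5 and 4. Those 3 upper enzymes also had the longest 3′UTRs, of 2285, 1087 and 1263 bases, while the other 7 ran from 180 bases (Gapdh) to 890 (Pgam1). The Spearman correlation with 3′UTR length was 0.6 over the members and 0.00419 over the 15015 tested genes with an annotated mRNA. With 10 points these values are descriptions.

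**Figure D4:**
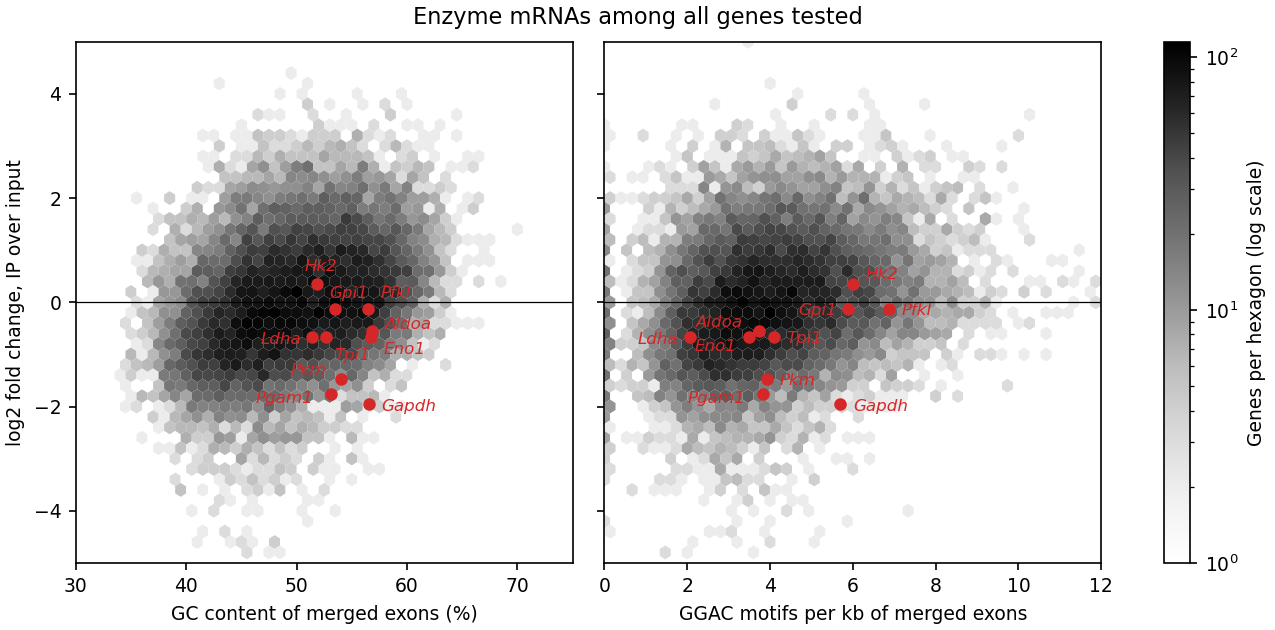
Log2 fold change of IP over input (y axis) against GC content (left, %) and GGAC motifs per kb of merged exons (right) for all tested genes with a value, shaded by their number per hexagon on a log scale, with the 10 enzymes in red. Genes beyond the axes (342 on the left, 384 on the right) are not drawn. The enzymes lie between 51.4 and 56.9% GC, and Hk2, Gpi1 and Pfkl have the most GGAC per kb. Gapdh, at 5.7 per kb here, has 3.14 per kb over its mRNA alone.

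Several of these mRNAs have copies in the genome, and reads that mapped to several places were left out of the counts by the default of the counting tool. In GRCm38.p6, Gapdh had 125 other places with at least 90% identity over at least 50% of the mRNA, Ldha had 10, Eno1 6, Aldoa, Pgam1 and Pkm 4 each, Tpi1 2 and Gpi1 1. None was found for Hk2 and Pfkl. The share of mRNA bases inside an identical run of at least 150 bases elsewhere, the length of 1 read, was 94.113% for Gapdh, 91.648% for Pgam1 and 78.524% for Eno1. It was 11.436% for Tpi1, 6.44% for Pkm and 0 for the other 5. The counts and TPM of Gapdh, Pgam1 and Eno1 may therefore be low estimates in all 3 libraries, and their place in the order of levels is uncertain. Of these, Gapdh and Pgam1 were depleted and Eno1 was not called. For identical runs of at least 75 bases the share was 39.169% for Pkm, the highest after Gapdh (94.192%), Pgam1 (94.651%) and Eno1 (89.956%), and 0 for Hk2 and Pfkl. Spearman's rho between this share and the log2 fold change was -0.769 over the 10 members (-0.76 for the shorter runs), and the part of copies in the fold changes was not tested.

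**Figure D5:**
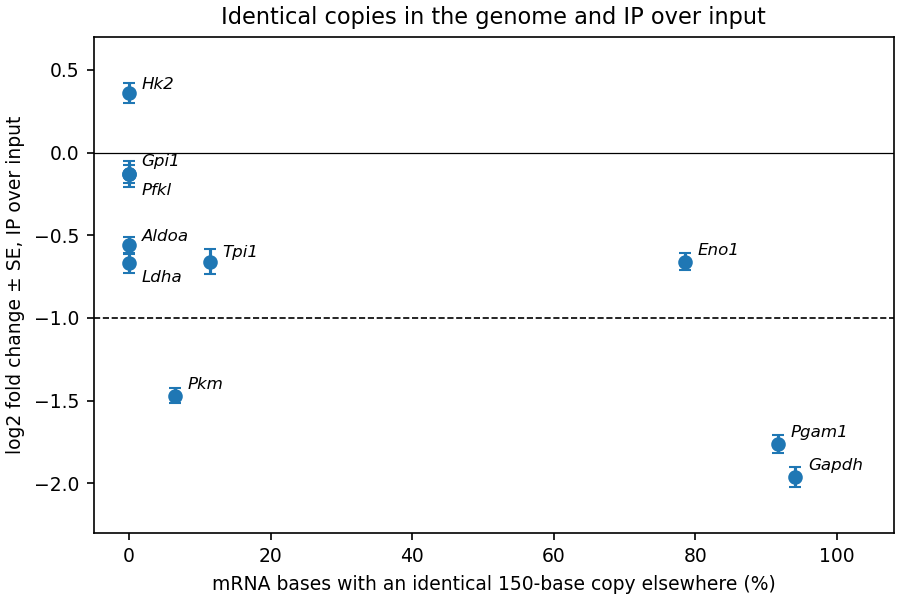
Log2 fold change of IP over input ± SE (y axis) against the share of mRNA bases that lie in an identical run of at least 150 bases elsewhere in the genome (x axis, %), for the 10 enzymes. Gapdh and Pgam1 have the highest shares and the lowest values, Pkm is depleted at 6.44% (39.169% for runs of at least 75 bases), and Eno1 with 78.524% lies level with Tpi1 and Ldha.

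The table also listed 10 retrocopies named after members, of which 5 were tested. Ldha-ps2 had 138 input counts against 31 and 8 in IP1 and IP2, with a log2 fold change of -2.85 ± 0.496 (edgeR adjusted p = 1.15e-05). The other tested ones did not pass, and the highest of them, Pgam1-ps2, had 187, 134 and 117 counts. Reads from stretches identical to the parent gene were left out at both places, so these counts do not measure how much the copies contribute. For Ldha, 66.0% of the merged exonic bases lay outside the annotated mRNA that was chosen for sequence features, as did 34.3% for Aldoa and 34.0% for Gapdh, so the TPM of these genes may be lower than a value over that mRNA alone would be.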

How the data were processed

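RIP-seq libraries of Dox-treated E14 mouse ESCs were grouped by their titles into 1 input and 2 YTHDF2 IP libraries (IP1 and IP2). The labels describe Trizol-extracted RNA used for IP, whereas the study's methods describe IP from a cleared cell lysate, and the counts cannot tell these apart. Per the labels the library kit marked strand by dUTP, and fastp 0.19.4, HISAT2 2.2.1 and DESeq2 1.40.2 were among the submitters' tools, with build mm10. The deposited values are raw counts per gene over merged exons, made by the authors with featureCounts 2.0.3 per the file headers. Strand was not used and mates were counted singly, so counts exceed the number of fragments (61.4% to 64.7% of counts from 1 to 100 were even) which makes sampling noise larger than they imply. The deposited column of exonic length was replaced by the length on the main chromosomes for Hk2 and Eno1, which are annotated on alternate contigs too. Columns of other samples numbered 0.

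In R 4.3.3 with edgeR 4.0.16, counts were filtered (filterByExpr), scaled by TMM (factors 0.957, 1.02 and 1.02) and tested with the robust quasi-likelihood F test on all 19601 genes, with 1 residual degree of freedom from the IP libraries. The common dispersion was 0.00538. Single-library log2 ratios used 0.5 added to each count. A count of 3, the floor, was 0.0811 to 0.0851 CPM. Starts and ends of all 49632 genes on main chromosomes matched the GRCm38.p6 RefSeq annotation. Copies were sought with BLAST+ 2.17.0. Motifs were searched on the mRNA strand only.

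The members and lists were chosen with earlier results of these data known. All members were named. Of the other glycolytic enzymes any tested gene could be named, and of the remaining lists those called and up to 2 at each end. Results for some genes of these lists are not reported here. Alternatives were DESeq2 1.42.0, other scalings and filters, a fixed dispersion, halved counts, no mitochondrial genes, a GC trend, and leaving out each IP library. Shares for a mean of at least 10 CPM come from a fit on those genes alone.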

Additional observations from a re-analysis of the deposited data

How the results depend on the processing

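The input was not replicated, so variation between inputs was not measured and IP1 and IP2 alone set the error of each test. No paired analysis was possible because the input exists once and its label has no number to pair with IP1 or IP2. The counts of 0 enriched and 3 depleted members were obtained under every alternative with a test, except 4 depleted with the GC trend removed. With a dispersion fixed at 0.1, 0 members were higher and 3 were lower at any fold. There Gapdh, Pgam1 and Pkm passed the edgeR likelihood ratio test (adjusted p = 0.00473, 0.0125 and 0.0437), and Hk2 (0.717), Gpi1 (0.907), Aldoa (0.526), Tpi1 (0.434), Eno1 (0.433), Ldha (0.425) and Pfkl (0.907) did not. The members' median of -0.66 became -0.568 with total counts, -0.517 with scaling to TPM, -0.64 without a filter, -0.639 at a mean of at least 10 CPM and -0.906 with the GC trend removed. Scaling to TPM moved the median of all genes by 0.147. Leaving out each IP library gave member medians from -0.674 to -0.644, with no test. Under scaling to TPM, Gpi1 and Pfkl turned to 0.02. The gluconeogenesis median (-0.18) ran from -0.24 to 0.01 when each IP library was left out. By CPM in place of TPM, 5 of 10 members kept their input rank, with Pkm first. Over single members and the alternatives with a test, 87 values kept their direction and side of the adjusted p of 0.05, 10 lost significance, 1 gained it and 2 reversed, and Eno1 (-1.04) also passed the fold for a call with the GC trend removed. The 20 values without 1 IP library kept their direction, with no test. Gpi1 lost it under DESeq2 (0.0739), total counts (0.637), scaling to TPM (0.759), no filter (0.121), the 10 CPM filter (0.0607) and the fixed dispersion. The causes were not tested.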
